A study of Mus musculus with 18 samples.

Results

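Collagen genes were followed in whole spinal cords of the SMNΔ7 mouse, a model of spinal muscular atrophy (SMA). The members were the gene loci that carry a single symbol of the form Col, number, a, number and that reach FPKM 0.5 or more in at least 1 group. FPKM is a level per transcript length and per depth of the library, so different genes can be set side by side. The rule gave 36 members among 58570 gene loci, of which 20164 have 1 symbol and pass the same FPKM limit. They were 10 fibrillar collagens, 7 basement membrane collagens and 19 other collagens. The labels give 6 groups of 3 libraries, 18 in all, from strain SMNdelta7: homozygous pups (SMA) and heterozygous pups (control), each at postnatal days 2, 6 and 10 (P2, P6 and P10). As background, affected pups of this line lack mouse Smn1 in every cell and carry human SMN transgenes, which the controls carry too. Whether a library held 1 animal or a pool was not given in the sources used here. The deposited tables combine the libraries of a group, so each value below is the authors' group value and has no SD or n.

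Collagens are secreted or membrane-bound proteins whose chains wind into triple helices. Fibrillar collagens build the ropes of fibrous tissue, which around the cord means the meninges, the vessel walls and the sheaths of nerve roots. Type IV chains form the sheet-like network of basement membranes under vessels and at the cord's glial border. The other collagens decorate fibrils, form beaded filaments or span the membrane of cells, neurons included. In whole tissue, fewer cells of a type and less RNA per cell cannot be told apart.

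Promoter sequences are shown for the type IV pair Col4a1 and Col4a2, which are transcribed away from each other, and for Col1a2, the member with the highest level. RefSeq on GRCm38.p6 places the Col4a1 start at 11312826 on the minus strand of chromosome 8 and the Col4a2 start at 11312805 on the plus strand, 21 bases apart, so the Col4a2 window covers both starts. The RefSeq start of Col1a2 lies 804 bases downstream of the GENCODE gene start used for its coordinates, so its window does not cover that start. Each window runs from 250 bases before the gene's start to 50 bases after it, 5′ to 3′ on the plus strand. It lies at chr8:11312555-11312854 for Col4a2 and at chr6:4505368-4505667 for Col1a2. Capitals mark GGGCGG (the GC box) and CCAAT (the CCAAT box), each on either strand, and no 2 marked matches overlap.
Col4a2: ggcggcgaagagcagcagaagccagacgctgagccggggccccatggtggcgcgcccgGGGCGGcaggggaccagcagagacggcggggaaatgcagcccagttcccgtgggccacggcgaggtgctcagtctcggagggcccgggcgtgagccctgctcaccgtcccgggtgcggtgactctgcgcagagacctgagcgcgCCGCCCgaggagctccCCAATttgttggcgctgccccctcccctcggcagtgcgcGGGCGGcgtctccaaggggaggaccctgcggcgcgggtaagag
Col1a2: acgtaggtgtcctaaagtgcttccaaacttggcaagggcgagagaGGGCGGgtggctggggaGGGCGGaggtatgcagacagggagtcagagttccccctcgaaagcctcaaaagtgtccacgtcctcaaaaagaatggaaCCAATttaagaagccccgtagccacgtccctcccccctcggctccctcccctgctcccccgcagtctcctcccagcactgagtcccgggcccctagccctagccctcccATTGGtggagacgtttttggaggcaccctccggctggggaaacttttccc
The Col4a2 window holds 3 GC boxes and 1 CCAAT box, and the Col1a2 window holds 2 and 2. Of 32841 promoter windows of the same length, 35.7% hold the GC box and 37.4% the CCAAT box on either strand. TATAAA, searched on both strands, is in neither window and in 13.6% of all windows. Promoter windows were found for 27 of the 36 members, of which 18 hold the GC box and 10 the CCAAT box.

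The labels were first checked by Smn1 itself. Smn1 was FPKM 0.0210 in SMA cords at P2, against 2.70 in control cords, and was listed at 0 in SMA cords at P6, against 4.46 in control cords. In the group labelled SMA at P10 it was FPKM 2.82, against 3.54 in control cords. At P10 Smn1 therefore goes against the label, and each direction given below for P10 rests on it. Estimated fragments per group, which the authors' tool had scaled, ranged from 6881671 to 7386338. Among oligodendrocyte markers, 4 of 8 (Mag, Cldn11, Mal and Ermn) were called higher in SMA at P2, beside 0.126% of all genes called in either direction. The summed FPKM of the list was 3374, 1962 and 4153 in SMA cords, and 248, 1738 and 7449 in control cords at P2, P6 and P10. In control cords this sum stood in the order of age, while in SMA cords it was higher at P2 than at P6. Directions given below that use the SMA group at P2 rest on that group as labelled. The part of these markers in the collagen values below was not tested.

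Type I collagen RNA was the most abundant of the collagens measured as members. Col1a2, which encodes the α2 chain of type I collagen, averaged FPKM 53.6 over the 6 groups, and Col1a1, the α1 chain, averaged 25.99. Their joint share of the collagen FPKM at P2, P6 and P10 was 27.0%, 34.1% and 24.4% in SMA cords, and 28.7%, 31.7% and 32.0% in control cords. Next came Col4a1 at a mean of 25.0, Col9a3 at 14.0, Col4a2 at 13.1 and Col26a1 at 10.5. The least abundant members were Col4a3 at a mean of 0.320, Col28a1 at 0.519 and Col10a1 at 0.602. Just inside the limit lay Col4a3, with a highest group value of FPKM 0.588, and just outside it lay Col6a6 at 0.418 and Col6a5 at 0.395. In all, 5 single-symbol collagen loci stayed below the limit (Col4a4, Col6a4, Col6a5, Col6a6 and Col17a1). Col3a1, the type III partner of type I collagen in soft tissue, was joined with a clone name in 1 locus and was no member. That joined locus was FPKM 42.2, 60.9 and 25.9 in SMA cords, and 48.2, 53.2 and 52.8 in control cords at P2, P6 and P10. Col7a1 and Col20a1 also shared a locus with other symbols and were not members.

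**Figure D1:**
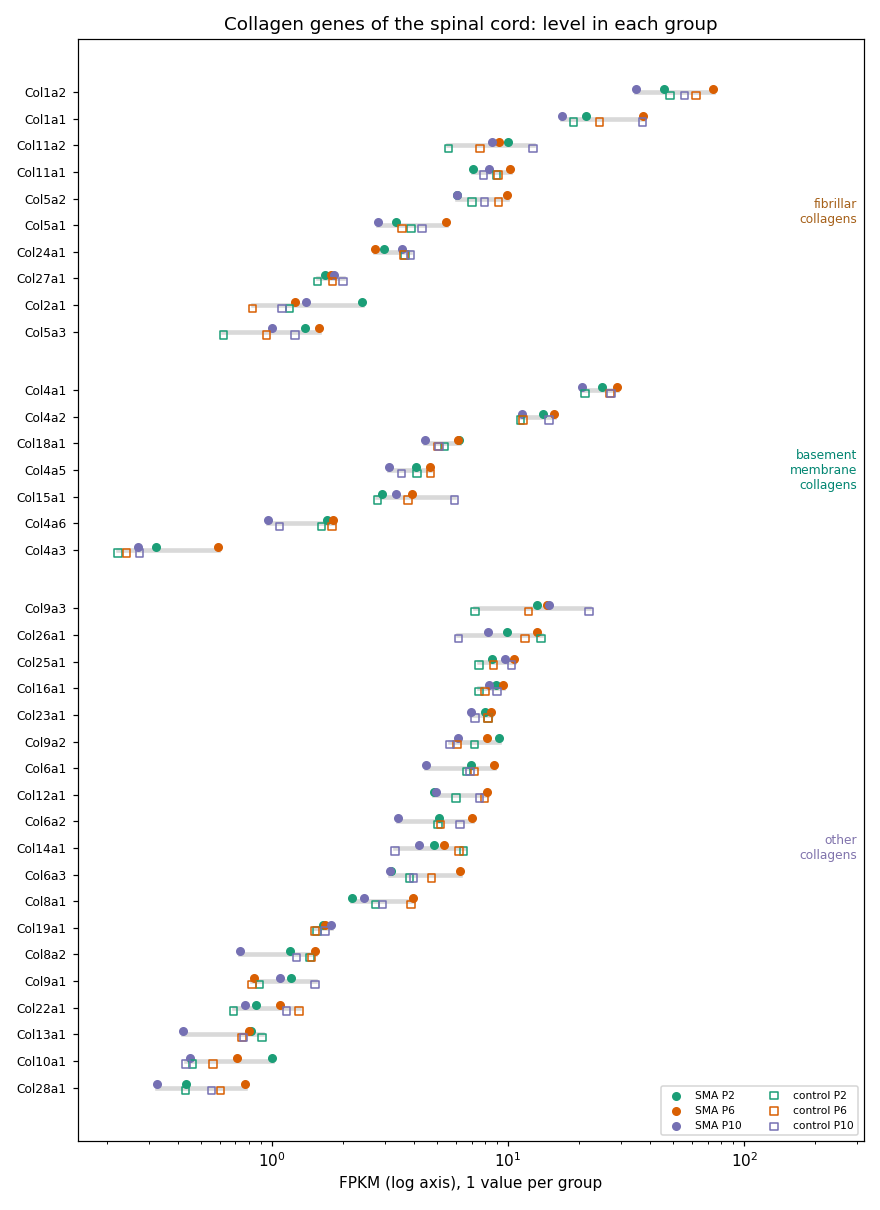
FPKM of each of the 36 collagen members on a log axis, with 1 point per group (filled circles for SMA, open squares for control, colour for age) and a grey bar over the range. Col1a2 spans FPKM 34.8 to 73.9 and stands above every other member in 6 of 6 groups, while Col4a3 has its highest value at 0.588.

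The summed FPKM of the members was close between genotypes at P2, higher in SMA at P6 and lower in the group labelled SMA at P10. It was 248 in SMA cords against 235 in control cords at P2, 326 in SMA cords against 275 in control cords at P6, and 212 in the group labelled SMA against 291 in control cords at P10. The fibrillar sum was FPKM 102, 153 and 85.4 in SMA cords, with its highest value at P6, and 99.9, 123 and 134 in control cords, in the order of age. Fibrillar collagens took 41.1%, 46.9% and 40.3% in SMA cords, and 42.5%, 45.0% and 46.1% in control cords, the greatest share of the 3 classes in each group. Basement membrane collagens took 21.9%, 18.9% and 20.8% in SMA cords, and 19.8%, 19.7% and 20.0% in control cords. These sums carry no error of their own and were not tested.

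**Figure D2:**
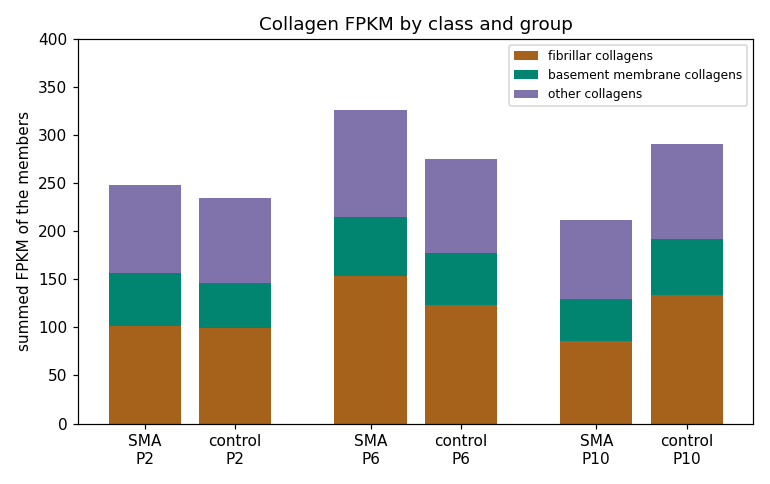
Summed FPKM of the fibrillar, basement membrane and other collagen members in each group, with SMA left of control at each age. The total is 326 in SMA and 275 in control at P6, and 212 in SMA and 291 in control at P10.

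For single genes, the log2 FPKM ratio was set against a standard error taken from the authors' interval in a z test, two-sided, with Benjamini-Hochberg adjustment over all genes tested. Calls needed an adjusted p under 0.05, and no member was called in any of the 10 comparisons. Between SMA and control cords, 0 of 31 members tested were called at P2, beside 0.126% of all genes tested. At P6 it was 0 of 31, beside 0.0458%, and at P10 0 of 32, beside 0.0397%, so these counts of 0 are near the background. An unadjusted p under 0.05 was found for 0 members at each age, beside 0.743% (P2), 0.168% (P6) and 0.213% (P10) of all genes. Deposited intervals of SMA and control did not overlap for 0 members tested, beside 0.23% (P2), 0.117% (P6) and 0.0794% (P10) of all genes. The upper bound of the median member's interval lay 59.4% to 69.5% of the FPKM above its value. Members not tested at an age, such as Col4a3, Col10a1, Col13a1 and Col28a1, had FPKM under 1 in both groups compared.

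Over the 36 members, tested or not, SMA values were mostly the higher ones at P6 and mostly the lower ones at P10. The SMA value was higher for 22 members at P2, beside 51.3% of the loci with 1 symbol at the same limit. It was higher for 31 at P6, beside 61.5%, and for 7 in the group labelled SMA at P10, beside 52.8%. The median log2 ratio of the members was 0.07, 0.20 and -0.32 at P2, P6 and P10, beside 0.01, 0.08 and 0.02 over those loci. With groups rescaled by median-of-ratios factors the P6 count was 24, and with the deposited counts 25, beside 50.6% and 50.6% of the loci. A value higher at P6 and lower at P10 was found for 25 of 36 members, beside 30.1% of the loci. With median-of-ratios scaling, 7 of these 25 (Col9a1, Col23a1, Col8a1, Col15a1, Col8a2, Col12a1, Col4a6) no longer had a higher SMA value at P6. The share of the loci with this pattern was not computed with that scaling.

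**Figure D3:**
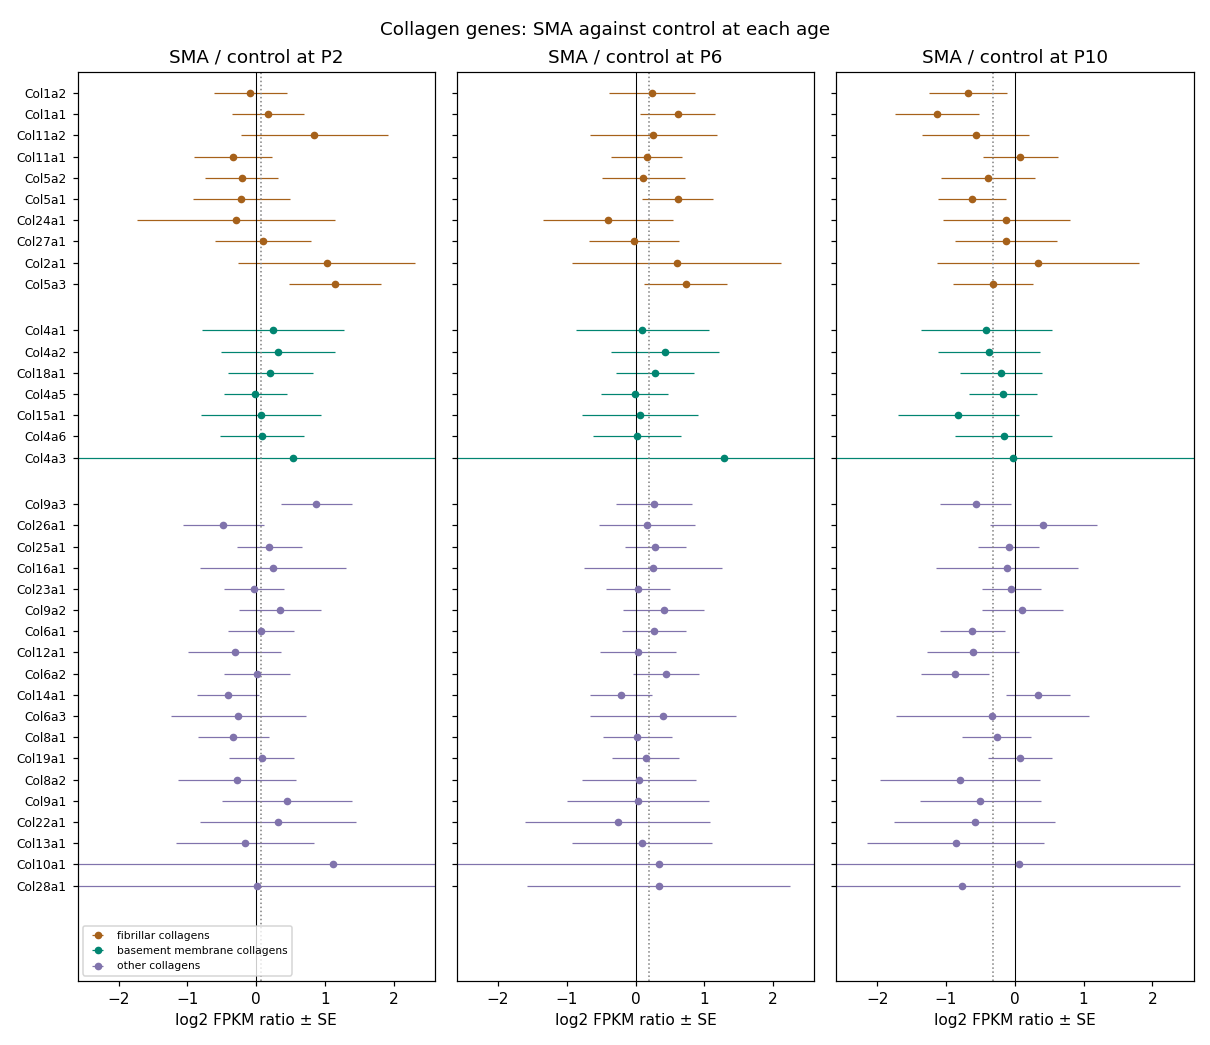
Log2 ratio of FPKM of SMA over control with its standard error for each collagen member at P2, P6 and P10; the dotted line is the median of the 36 members, and error bars of Col4a3, Col10a1 and Col28a1 run past the axis. The median is 0.20 at P6 and -0.32 at P10, where 29 of 36 points lie below 0, and no member was called at any age.

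Among the fibrillar collagens, Col1a1 had the lowest log2 ratio of the members tested at P10. Col1a1 was FPKM 21.3, 37.2 and 17.0 in SMA cords, and 18.9, 24.4 and 37.1 in control cords at P2, P6 and P10. The genotypes lay near each other at P2, with SMA above control at P6 and below it at P10. The log2 ratio at P10 was -1.13 ± 0.62 (SE), with a 95% interval of -2.34 to 0.08 and an unadjusted p of 0.0670 in the z test. Col1a2 was FPKM 45.7, 73.9 and 34.8 in SMA cords, and 48.5, 62.5 and 55.9 in control cords. Its log2 ratios were -0.09 ± 0.53, 0.24 ± 0.63 and -0.68 ± 0.57 at P2, P6 and P10. Although type I collagen holds more α1 than α2 chains, the Col1a1 to Col1a2 ratio of FPKM was under 1 in each group. It was 0.466, 0.504 and 0.487 in SMA cords, and 0.391, 0.390 and 0.664 in control cords, with its highest value in controls at P10. Col1a1 (ENSMUSG00000001506.10) lies on chromosome 11 from 94936224 to 94953042 and Col1a2 (ENSMUSG00000029661.16) on chromosome 6 from 4504814 to 4541544, both on the plus strand of GRCm38.

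Type V collagen, which nucleates type I fibrils, had Col5a1 and Col5a2 values higher in SMA at P6 and lower at P10. Col5a1 was FPKM 3.34, 5.43 and 2.81 in SMA cords, and 3.87, 3.56 and 4.32 in control cords. Col5a2 was FPKM 6.07, 9.85 and 6.08 in SMA cords, and 7.02, 9.10 and 7.95 in control cords. Col5a3, another type V chain, had the greatest log2 ratio of the members tested at P2 (1.14 ± 0.67) and at P6 (0.73 ± 0.60), neither of them called. It was FPKM 1.37, 1.57 and 1.00 in SMA cords, and 0.622, 0.949 and 1.25 in control cords.

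The type XI chains, minor partners in cartilage and other fibrils, differed from each other in their course. Col11a2 was FPKM 10.01, 9.11 and 8.57 in SMA cords, and 5.59, 7.60 and 12.7 in control cords at P2, P6 and P10. Col11a1 was FPKM 7.10, 10.1 and 8.33 in SMA cords, and 8.93, 9.06 and 7.88 in control cords. Control values of Col11a2 stood in the order of age, while its SMA values stood in the reverse order over a narrower range. Its log2 genotype ratios were 0.84 ± 1.07, 0.26 ± 0.92 and -0.57 ± 0.77 at P2, P6 and P10. The lower bound of the Col11a2 interval was 0 in SMA cords at P2 and in control cords at P2 and P6. The Col11a2 to Col11a1 ratio was 1.41, 0.899 and 1.03 in SMA cords, and 0.626, 0.839 and 1.62 in control cords. Col24a1, a fibrillar collagen of developing bone, had the lowest log2 ratio of the members tested at P6 (-0.40 ± 0.95). It was FPKM 2.98, 2.74 and 3.54 in SMA cords, and 3.66, 3.62 and 3.85 in control cords, lower in SMA at 3 of 3 ages. Col27a1, a fibrillar collagen of cartilage, ranged from FPKM 1.56 to 1.99 over the 6 groups. Col2a1, the main collagen of cartilage, was FPKM 2.41, 1.25 and 1.40 in SMA cords, and 1.19, 0.828 and 1.10 in control cords. These FPKM values were higher in SMA at 3 of 3 ages, but the lower bound of its interval was 0 in each group. In deposited counts its P10 direction was reversed, at 30.9 estimated fragments in the group labelled SMA and 42.0 in control cords.

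Among the basement membrane collagens, Col4a1 and Col4a2 were the most abundant. Their α1 and α2 chains join in the common type IV network of vessels. Col4a1 was FPKM 25.0, 28.9 and 20.5 in SMA cords, and 21.2, 27.0 and 27.3 in control cords at P2, P6 and P10. Col4a2 was FPKM 14.1, 15.6 and 11.5 in SMA cords, and 11.3, 11.5 and 14.9 in control cords. Both had higher SMA values at P2 and P6 and lower ones at P10. The log2 ratios were 0.24 ± 1.04, 0.10 ± 0.97 and -0.41 ± 0.96 for Col4a1 and 0.32 ± 0.83, 0.43 ± 0.79 and -0.37 ± 0.74 for Col4a2. The Col4a1 to Col4a2 ratio of FPKM was 1.78, 1.86 and 1.78 in SMA cords, and 1.88, 2.34 and 1.84 in control cords. Col4a1 (ENSMUSG00000031502.11) runs on the minus strand of chromosome 8 from 11198423 to 11312826 and Col4a2 (ENSMUSG00000031503.13) on the plus strand from 11312805 to 11449287, so the annotated genes overlap at the starts printed above. The authors' table gives both the same locus span with a value each, and the strand setting of the counting was not given in the sources used here.

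The chains of the specialised type IV networks were scarcer. Col4a5 and Col4a6 form another head-to-head pair on chromosome X, with RefSeq starts 1343 bases apart. Col4a5 was FPKM 4.07, 4.65 and 3.12 in SMA cords, and 4.12, 4.69 and 3.53 in control cords. Col4a6 was FPKM 1.71, 1.82 and 0.963 in SMA cords, and 1.62, 1.80 and 1.08 in control cords. Both had their lowest value at P10 in each genotype, unlike Col4a1 and Col4a2 in control cords. Their log2 genotype ratios were -0.01 ± 0.46, -0.01 ± 0.49 and -0.18 ± 0.50 for Col4a5 and 0.08 ± 0.61, 0.02 ± 0.64 and -0.16 ± 0.70 for Col4a6. Col4a3, a chain of kidney basement membranes, was FPKM 0.323, 0.588 and 0.270 in SMA cords, and 0.223, 0.242 and 0.275 in control cords, too low for a test.

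The multiplexins Col18a1 and Col15a1 are linked to the outer zone of basement membranes. Col18a1, the source of endostatin, was FPKM 6.18, 6.15 and 4.43 in SMA cords, and 5.37, 5.05 and 5.09 in control cords at P2, P6 and P10. Col15a1, found around vessels and in peripheral nerve, was FPKM 2.93, 3.93 and 3.35 in SMA cords, and 2.80, 3.76 and 5.92 in control cords. The 7 basement membrane collagens had lower values in the group labelled SMA at P10 in 7 of 7 cases, from -0.82 (Col15a1) to -0.03 (Col4a3) on the log2 scale. Their median log2 ratio was 0.20, 0.10 and -0.20 at P2, P6 and P10, beside 0.01, 0.25 and -0.35 for the fibrillar and 0.01, 0.17 and -0.33 for the other collagens. In the group labelled SMA at P10, values were also lower for 8 of 10 fibrillar and 14 of 19 other collagens. Of the loci with 1 symbol, 52.8% had a higher value in that group.

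**Figure D4:**
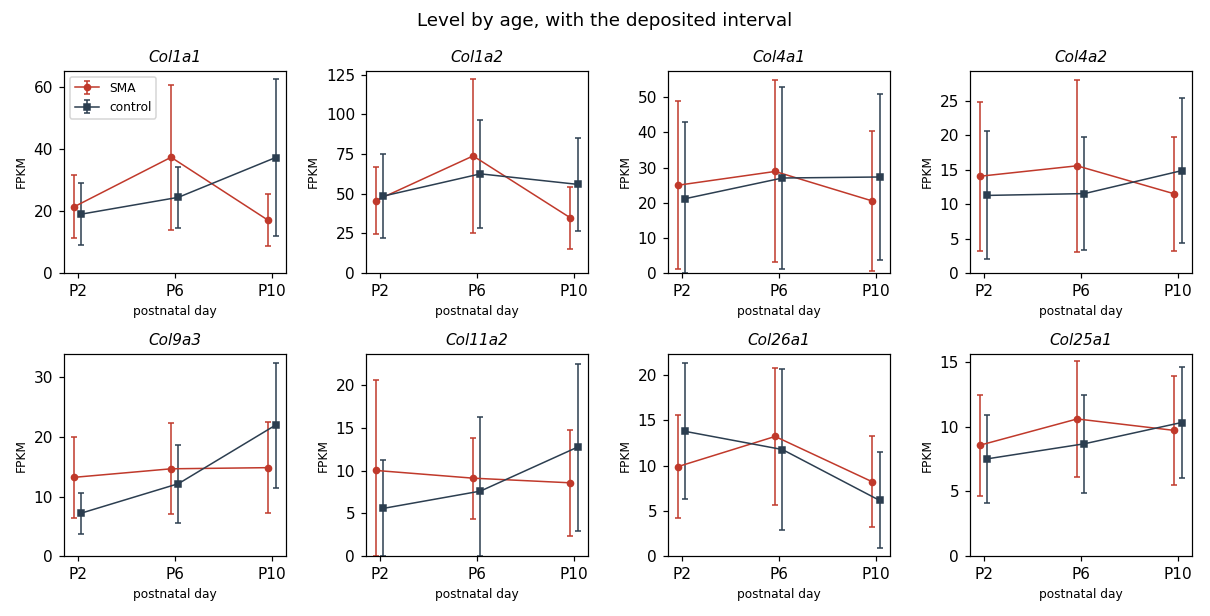
FPKM of 8 collagen genes by postnatal day in SMA (red circles) and control (dark squares), with bars for the deposited interval. Col1a1 and Col1a2 have their highest SMA value at P6, at 37.2 and 73.9, Col9a3 spans 7.24 to 22.0 in control, and the intervals of SMA and control overlap at each age.

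Among the other collagens, Col9a3 had the widest range of all members over the groups. It encodes a chain of type IX collagen, which coats cartilage fibrils. Col9a3 was FPKM 13.2, 14.7 and 14.9 in SMA cords, and 7.24, 12.2 and 22.0 in control cords at P2, P6 and P10. Control values stood in the order of age, and SMA values lay within a narrow range between the control values of P6 and P10. From P2 to P10 the log2 ratio was 0.17 ± 0.54 in SMA cords and 1.60 ± 0.50 in control cords (adjusted p = 0.143 in control, z test). The change of the genotype difference from P2 to P10 was -1.44 ± 0.73, with an unadjusted p of 0.0494 in the z test, beside 0.894% of all genes under 0.05. Adjusted over all genes it was not called, with 0 of 32 members called beside 0.0574% of all genes. This change was higher than 0 for 5 of 36 members, beside 51.3% of the loci with 1 symbol. Without the P10 groups the genotype ratios of Col9a3 were 0.87 ± 0.52 at P2 and 0.27 ± 0.55 at P6. The myelin gene Mag, given beside it, was FPKM 145, 99.6 and 172 in SMA cords, and 11.1, 92.4 and 315 in control cords, and its part in the Col9a3 values was not tested. The other type IX chains had another course. Col9a2 was FPKM 9.15, 8.10 and 6.13 in SMA cords, and 7.19, 6.08 and 5.67 in control cords, and Col9a1 ranged from 0.823 to 1.52. The Col9a3 to Col9a2 ratio was 1.45, 1.81 and 2.43 in SMA cords, and 1.01, 2.003 and 3.88 in control cords. Col9a3 (ENSMUSG00000027570.15) lies on the plus strand of chromosome 2 from 180597790 to 180622189.

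Col26a1 and Col14a1 had their highest control value at P2 and their lowest at P10. Col26a1, which encodes a secreted protein with collagen repeats, was FPKM 9.88, 13.2 and 8.21 in SMA cords, and 13.8, 11.8 and 6.16 in control cords at P2, P6 and P10. It had the lowest log2 genotype ratio of the members tested at P2 (-0.48 ± 0.58) and the greatest at P10 (0.41 ± 0.77). Col14a1, which binds the surface of fibrils, was FPKM 4.87, 5.35 and 4.20 in SMA cords, and 6.48, 6.19 and 3.32 in control cords. From P2 to P10 the log2 ratio of Col26a1 was -0.27 ± 0.62 in SMA cords and -1.16 ± 0.75 in control cords. That of Col14a1 was -0.21 ± 0.47 in SMA cords and -0.96 ± 0.45 in control cords, and none of these was called.

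Type VI collagen forms the beaded filaments of connective tissue and nerve sheaths. Col6a1 was FPKM 6.97, 8.69 and 4.51 in SMA cords, and 6.65, 7.21 and 6.91 in control cords at P2, P6 and P10. Col6a2 was FPKM 5.08, 7.01 and 3.42 in SMA cords, and 5.05, 5.16 and 6.26 in control cords. Col6a3 was FPKM 3.20, 6.27 and 3.16 in SMA cords, and 3.83, 4.74 and 3.97 in control cords. These 3 chains had higher SMA values at P6 and lower ones at P10, where the Col6a2 log2 ratio was -0.87 ± 0.49. Col12a1, a fibril-associated collagen of dense tissue, was FPKM 4.84, 8.13 and 4.97 in SMA cords, and 6.02, 7.95 and 7.56 in control cords. Col8a1, of vessel walls, ranged from FPKM 2.18 to 3.95 with its highest value at P6 in each genotype, and Col8a2 from 0.735 to 1.52.

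Several membrane-spanning and fibril-associated collagens had a narrow range over the 6 groups. Col25a1, a membrane-spanning collagen needed in mice for motor innervation of muscle, was FPKM 8.56, 10.6 and 9.70 in SMA cords, and 7.51, 8.67 and 10.3 in control cords. Its log2 genotype ratios were 0.19 ± 0.47, 0.29 ± 0.45 and -0.09 ± 0.44. Col23a1, another membrane-spanning collagen, ranged from FPKM 6.99 to 8.43, and Col19a1, which is made by some neurons, from 1.52 to 1.77. The highest group value was 1.16 times the lowest for Col19a1 and 1.21 times for Col23a1, the narrowest of the 36, and 3.04 times for Col9a3, the widest. Col16a1, a fibril-associated collagen, was FPKM 8.88, 9.53 and 8.30 in SMA cords, and 7.52, 7.98 and 8.97 in control cords. The scarce Col22a1, Col13a1, Col10a1 and Col28a1 stayed between FPKM 0.326 and 1.30.

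Across the 3 ages, limma on log2(FPKM + 1) with age as a factor called 0 of 32 members tested, beside 0.00455% of all genes. The fit used the 6 group values, so different ages took the place of repeated libraries. Each ± from limma rests on how the genotype difference varied from age to age, not on animals or the deposited intervals. That of Col2a1 thus leaves out its deposited interval, whose lower bound was 0 in each group. An unadjusted p under 0.05 was found for 2 members, Col2a1 at 0.38 ± 0.15 and Col9a2 at 0.26 ± 0.10, beside 2.05% of all genes. It was found for 0 members with median-of-ratios scaling, beside 2.03% of all genes, and with deposited counts for 3 other members (Col6a3, Col8a1, Col12a1), beside 1.78%. Without P10, the age at which Smn1 goes against the label, limma again called 0 members, beside 0.029% of all genes, and 6 had an unadjusted p under 0.05 (Col2a1, Col11a2, Col9a3, Col9a2, Col4a2, Col5a3), beside 6.49% of all genes. That number was 0 without P2, beside 2.91%, and 0 without P6, beside 1.46%. A value higher in SMA at 3 of 3 ages was found for 4 members (Col19a1, Col10a1, Col2a1, Col9a2), beside 12.5% of the loci with 1 symbol. A lower one was found for 2 (Col24a1, Col4a5), beside 6.85%. With deposited counts, Col19a1 at P6, Col2a1 at P10 and Col24a1 at P2 changed sign.

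With age, no collagen was called in either genotype by the z test. In SMA cords 0 of 32 members tested were called from P2 to P6 (beside 0.0312% of all genes), 0 of 32 from P6 to P10 (0.0398%) and 0 of 31 from P2 to P10 (0.0602%). In control cords it was 0 of 30 (0.112%), 0 of 32 (0.0751%) and 0 of 32 (0.631%) over the same steps. An unadjusted p under 0.05 was found in SMA cords for 1 member from P6 to P10 (Col6a2, -1.03 ± 0.50), beside 0.324% of all genes, and for 0 over the other steps, beside 0.234% from P2 to P6 and 0.331% from P2 to P10. In control cords it was found for 2 members from P2 to P10 (Col9a3 and Col14a1), beside 3.51%, for 1 from P6 to P10 (Col14a1), beside 1.12%, and for 0 from P2 to P6, beside 0.637%. The later value was the higher one in SMA cords for 28 of 36 members from P2 to P6, 6 from P6 to P10 and 10 from P2 to P10, beside 55.1%, 49.1% and 53.5% of the loci. In control cords it was the higher one for 25, 19 and 24, beside 49.6%, 53.9% and 52.2%. By intervals that do not overlap, 1 member, Col9a3, was called from P2 to P10 in control cords, beside 1.36% of all genes.

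Genes for collagen processing, collagen receptors, matrix proteases with their inhibitors, and other matrix proteins were read in lists beside the members. None of those tested was called between SMA and control cords, beside 0.126% (P2), 0.0458% (P6) and 0.0397% (P10) of all genes. The counts of higher SMA values below stand beside 51.3%, 61.5% and 52.8% of the loci with 1 symbol at P2, P6 and P10. Of 23 collagen processing genes at FPKM 0.5 or more, 15, 12 and 8 had a higher SMA value at P2, P6 and P10. Sparc, a collagen-binding protein, was FPKM 128, 145 and 117 in SMA cords, and 77.9, 116 and 171 in control cords. P4hb, a subunit of prolyl hydroxylase, was FPKM 46.9, 45.1 and 37.5 in SMA cords, and 41.2, 39.4 and 42.7 in control cords. Of 9 collagen receptors, 5, 6 and 1 had a higher SMA value. At P10 the integrin subunit gene Itgb1 was FPKM 38.9 in the group labelled SMA and 47.0 in control cords, and Adgrg1, a receptor for type III collagen in the brain, was 25.6 in the group labelled SMA and 32.1 in control cords. The breakdown list had 12 genes at that level, of which 5 (Timp1, Timp2, Timp3, Timp4 and Reck) encode inhibitors of matrix proteases. A higher SMA value was found for 6, 7 and 1 of the 7 protease genes and 3, 4 and 1 of the 5 inhibitor genes. Mmp16, the most abundant of the protease genes, was the 1 with a lower SMA value at P2 and the 1 with a higher value at P10. It was FPKM 20.5, 21.4 and 21.2 in SMA cords, and 26.6, 19.8 and 16.7 in control cords. The summed FPKM of the 7 protease genes was 46.5, 50.8 and 45.3 in SMA cords, and 49.2, 45.1 and 46.6 in control cords. At P10 the protease inhibitor gene Timp2 was FPKM 41.1 in the group labelled SMA and 46.4 in control cords, and its relative Timp3 was 25.1 in the group labelled SMA and 24.8 in control cords. Of 16 non-collagen basement membrane genes, 7, 13 and 5 had a higher SMA value. At P10 Agrn, which encodes agrin, was FPKM 41.9 in the group labelled SMA and 37.8 in control cords, and Nid1, which links laminin to type IV collagen, was 19.2 in the group labelled SMA and 22.9 in control cords. Of 16 partners of fibrous matrix, 6, 12 and 1 had a higher SMA value, with a median log2 ratio of -0.64 at P10. At P10 Fn1, fibronectin, was FPKM 15.4 in the group labelled SMA and 24.5 in control cords, and the proteoglycan gene Bgn was 13.5 in the group labelled SMA and 21.7 in control cords.

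Markers of cell types and tissues in or around the cord are given for the same groups as summed FPKM at P2, P6 and P10. That of 15 meningeal fibroblast markers, 4 of which are also in the fibrous matrix list, was 142, 254 and 135 in SMA cords, and 181, 215 and 205 in control cords. Of the 14 at FPKM 0.5 or more, 2, 11 and 1 had a higher SMA value, beside 51.3%, 61.5% and 52.8% of the loci with 1 symbol. Much of the meningeal sum came from its most abundant marker, Ptgds, at FPKM 43.3, 120 and 60.0 in SMA cords. In control cords Ptgds was FPKM 72.6, 88.2 and 85.2. The sum of 10 endothelial markers was 77.2, 70.7 and 67.4 in SMA cords, and 54.0, 74.6 and 96.7 in control cords. For 8 pericyte markers it was 54.5, 57.1 and 53.5 in SMA cords, and 44.7, 55.9 and 75.5 in control cords. Meningeal, endothelial and pericyte sums were each lower in the group labelled SMA at P10. So were the sums of every other marker list except the neuron and skeletal muscle lists. For 6 vascular smooth muscle markers it was 7.82, 9.17 and 8.10 in SMA cords, and 5.48, 7.67 and 8.89 in control cords. For 6 astrocyte markers it was 571, 540.3 and 644 in SMA cords, and 282, 499.7 and 863 in control cords. Of 11 bone and cartilage markers, 4 reached FPKM 0.5, and Comp, Bglap, Lect1 were listed at 0 in at least 1 group. The sum of 4 Schwann cell markers (Pmp22, Prx, Ncmap and Egr2) was 34.9, 86.0 and 54.5 in SMA cords, and 27.8, 69.9 and 105 in control cords, and 3, 3 and 0 of the 4 had a higher SMA value. This sum was also lower in the group labelled SMA at P10. For 4 oligodendrocyte precursor markers the sum was 123, 132 and 146 in SMA cords, and 105, 131 and 168 in control cords. For 7 neuron markers it was 632, 652 and 607 in SMA cords, and 705, 593 and 544 in control cords. The neuron sum was thus lower in SMA at P2 and higher at P6 and P10. For 7 skeletal muscle markers it was 17.2, 8.34 and 2.84 in SMA cords, and 12.6, 8.29 and 2.55 in control cords. For 6 erythroid markers it was 514, 814 and 469 in SMA cords, and 760.4, 983 and 729.8 in control cords, lower in SMA at each age. The part of these markers in the collagen values was not tested.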

How the data were processed

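Per the submitters' processing notes, the tools named were Cufflinks 2.2.1 with Cuffdiff, TopHat2 2.1.1, Bowtie2 2.2.4, FastQC and Picard, with build GRCm38. Per the labels, the kit was stranded and removed ribosomal RNA. The authors deposited FPKM with interval bounds, and expected counts (estimated fragments, not whole) with a model variance, each as 1 value per group, so no value per library was analysed here and the spread between libraries is unknown. The members and lists were chosen with earlier results of these data known.

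The interval was read as 95%, and the relative error was the distance from FPKM to the upper bound divided by 1.96. Genes tested by z test had FPKM 1 or more in a compared group, FPKM above 0 in each and status OK. No count model was run, since the expected counts are group values. limma 3.58.1 (R 4.3.3, with trend) was fitted on log2(FPKM + 1) and had 2 residual degrees of freedom. Both were run on data simulated with the spread of these same data, which cannot show whether that spread is right. Python 3.11.15, pandas 2.3.3 and scipy 1.17.1 were used for the rest. Where a listed symbol had several loci, the most abundant was used, and symbols joined with others were not measured. Gene coordinates are from the GRCm38 annotation, matched by symbol. The members described in full were the 4 most abundant of each class, those with the greatest and least tested genotype ratio at each age, and the type IV chains. Other members given with values were chosen after their values were seen. Alternatives covered filters, pseudocounts, scaling, deposited counts, readings of the interval and ages left out. Of the marker genes, 1 is not reported here.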

Additional observations from a re-analysis of the deposited data

How the results depend on the processing

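The width of the deposited intervals limits what could be called. No paired analysis was possible because the columns combine the libraries of a group and carry no replicate number, and for the same reason no replicate could be left out. No member was called in the main tests. Under the alternatives, of 32 members tested, some were called from P2 to P10 in control cords. These were 1 (Col9a3) by intervals that do not overlap and 2 (Col14a1, Col9a3) with the interval read as that of 1 library. Of all 19956 genes tested in that comparison, 126 were called in the main test and 216 with deposited counts. By intervals that do not overlap 272 of the 19956 (1.36%) were called, and with the interval of 1 library 920 of the 19956. Between SMA and control, calls over all genes were 24, 9 and 8 at P2, P6 and P10, 20, 0 and 0 with deposited counts, 44, 23 and 16 by intervals that do not overlap and 123, 26 and 22 with the interval of 1 library. Across ages limma called 0 members under each alternative, beside 0 to 15 of all genes tested, the most without P6 (15 of 21293). Some uncalled log2 values changed sign. Of the 36 members these were 4, 8 and 1 with deposited counts and 2, 7 and 0 with median-of-ratios scaling, at P2, P6 and P10. Among the members described in full and tested, they were with deposited counts Col1a2 at P2 (0.028), Col24a1 at P2 (0.27) and Col4a6 at P6 (-0.15), and with that scaling Col4a6 at P6 (-0.053). Across ages, of 32 members tested, 6 changed sign without P2, 2 without P6, 13 without P10, 1 with median-of-ratios scaling and 3 with deposited counts. Among the 8 of them followed singly they were Col9a3 without P2 (-0.14), Col4a2 without P6 (-0.024) and, without P10, Col1a1 (0.38), Col1a2 (0.076) and Col4a1 (0.16). The cause was not tested. A membership limit of FPKM 0.1 gave 41 members, with a median log2 ratio of -0.27 at P10, and a limit of 1 gave 32, with -0.32.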
